A study of Mus musculus with 6 samples.

Results

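Mybpc1, Mybpc2, Mybph, Myom1, Myom2, Myom3, Ttn and Neb encode proteins that bind myosin, crosslink the middle of the sarcomere or extend along its filaments. Their transcripts were examined in soleus muscle on 6 Affymetrix whole-transcript arrays. Each gene was represented by the array feature whose annotation lists its symbol and no other, and each of the 8 genes had exactly 1 such feature. They were 8 of the 30142 genes with a feature of this kind. The Control group held 3 male mice labelled wild type. The cKO group held 3 male mice in which Mbtps1, encoding the site-1 protease, was deleted with a Cre recombinase driven by DMP1. All 6 mice were 39 to 41 weeks old, the controls were littermates, and each mouse gave 1 array from muscles of both legs. The labels do not state whether the controls carried Cre or floxed alleles. DMP1 is best known from osteocytes, so a whole muscle can hold cells with and without the deletion, and in such bulk tissue fewer cells of a type and less RNA per cell cannot be told apart.

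In a sarcomere, myosin thick filaments slide along actin thin filaments. Myosin-binding protein C wraps the thick filament in regular stripes and modulates how myosin heads meet actin. Myomesins tie neighbouring thick filaments together in the M-band, the line at the middle of the sarcomere. Titin runs from the Z-disc to the M-band as an elastic spring and scaffold, and nebulin lies along the thin filament and helps to set its length. The soleus of the mouse is a postural muscle that mixes slow, type I fibres with oxidative fast fibres.

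The stretch of 250 bases before the annotated start was read from RefSeq promoter sequences on build GRCm38.p6, which held 6 of the 8 genes. Myom2 and Neb had no entry. An E-box, spelled CANNTG and bound by myogenic factors such as MyoD, was found in all 6 stretches. It also occurred in 66.2% of 32851 promoters searched the same way on both strands. The motif of MEF2, a transcription factor of muscle genes, was found before Myom3 and Ttn and in 2.92% of all promoters. The letters TATAA, on either strand, were found before Mybph and Ttn and in 22.8% of all promoters. No match of 1 motif overlapped a match of another. Those of 4 genes are printed, the first 3 because among the 6 genes with an entry these separated the groups or varied most between mice, and Ttn because it holds the other MEF2 match. Capitals mark an E-box in Mybph and Mybpc2 and the MEF2 match in Myom3 and Ttn, and each is read 5′ to 3′ on the strand of its gene. A match is a description of the letters only.
Mybph, chr1:134193198-134193447, plus strand: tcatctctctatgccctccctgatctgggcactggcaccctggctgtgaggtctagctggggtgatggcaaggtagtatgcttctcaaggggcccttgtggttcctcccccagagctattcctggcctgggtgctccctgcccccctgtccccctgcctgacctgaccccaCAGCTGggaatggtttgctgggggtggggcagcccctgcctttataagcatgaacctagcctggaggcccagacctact
Mybpc2, chr7:44524670-44524919, minus strand: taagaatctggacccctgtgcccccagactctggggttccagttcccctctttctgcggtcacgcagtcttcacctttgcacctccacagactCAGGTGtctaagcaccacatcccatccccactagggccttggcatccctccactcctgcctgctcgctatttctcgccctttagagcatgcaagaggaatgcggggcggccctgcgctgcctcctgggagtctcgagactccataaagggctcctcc
Myom3, chr4:135759465-135759714, plus strand: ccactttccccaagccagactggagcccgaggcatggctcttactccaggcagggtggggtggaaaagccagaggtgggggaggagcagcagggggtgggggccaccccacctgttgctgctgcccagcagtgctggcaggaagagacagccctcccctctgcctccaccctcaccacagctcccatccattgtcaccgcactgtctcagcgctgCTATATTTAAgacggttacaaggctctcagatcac
Ttn, chr2:76982548-76982797, minus strand: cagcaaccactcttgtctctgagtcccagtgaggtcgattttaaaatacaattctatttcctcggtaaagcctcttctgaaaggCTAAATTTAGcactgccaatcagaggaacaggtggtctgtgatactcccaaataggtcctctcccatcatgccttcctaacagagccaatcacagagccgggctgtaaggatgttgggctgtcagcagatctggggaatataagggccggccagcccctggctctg
The capitals lie 74 to 79 bases before the start of Mybph, 152 to 157 before Mybpc2, 26 to 35 before Myom3 and 157 to 166 before Ttn.

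None of the 8 genes differed between cKO and Control past an adjusted p of 0.05 in limma, with an adjusted p of 0.999 for each. The same held for all 33334 features tested, of which 0% were called, so the count of 0 says nothing particular to these genes. At an unadjusted p under 0.05, 1 of the 8 genes passed, beside 4.5% of all features. Mybph was that gene, and it was also the only one of the 8 in which every cKO array lay above every Control array. Over all features, 8.95% had such a separation upward and 2.05% downward, and 0 of the 8 genes were separated downward. The median difference of the 8 genes was 0.00618 log2 units, beside 0.0741 over all features tested. All values are signals that were read as log2, with a difference given as cKO minus Control.

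**Figure D1:**
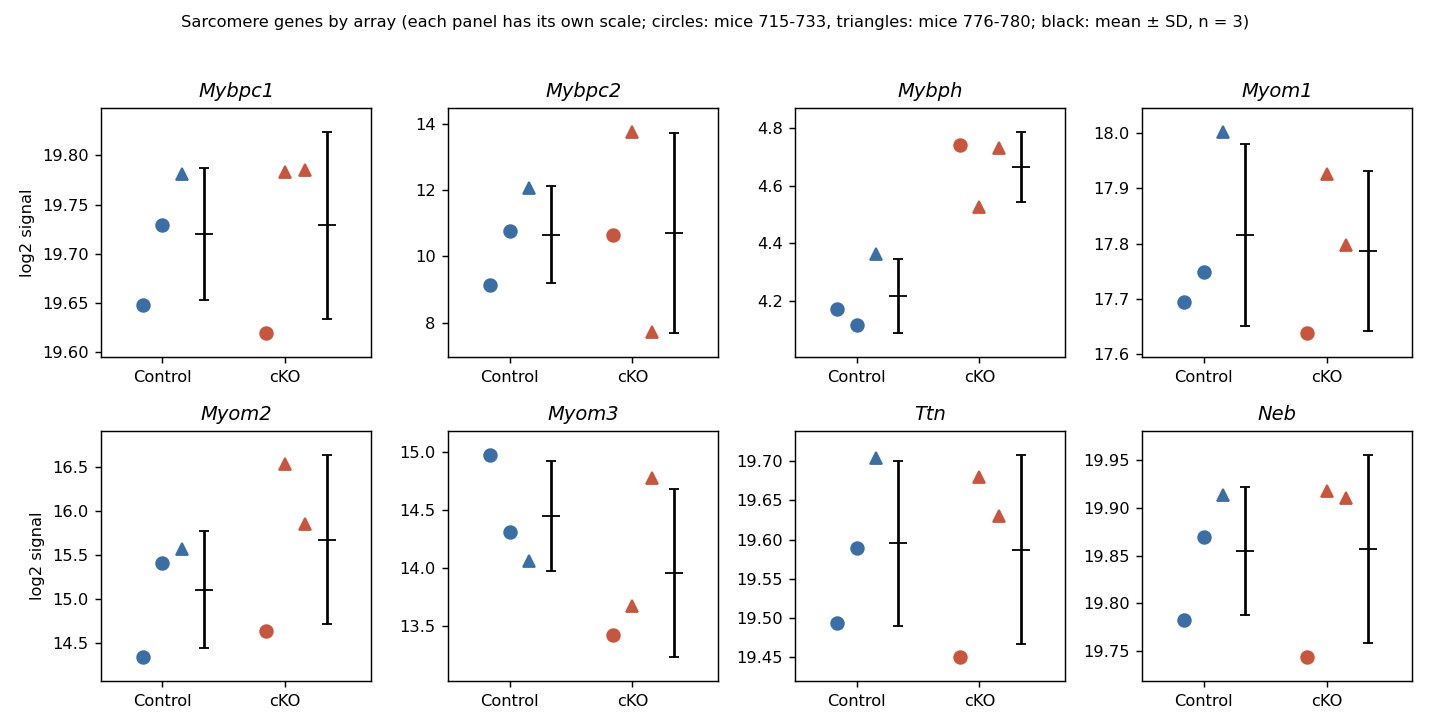
Log2 signal of the 8 genes on each array, with a separate vertical scale for each gene, circles for mice 715 to 733, triangles for mice 776 to 780, and black bars for the mean and SD of 3 arrays. The groups overlap in each panel except that of Mybph, where the cKO arrays lie above the Control arrays.

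**Figure D2:**
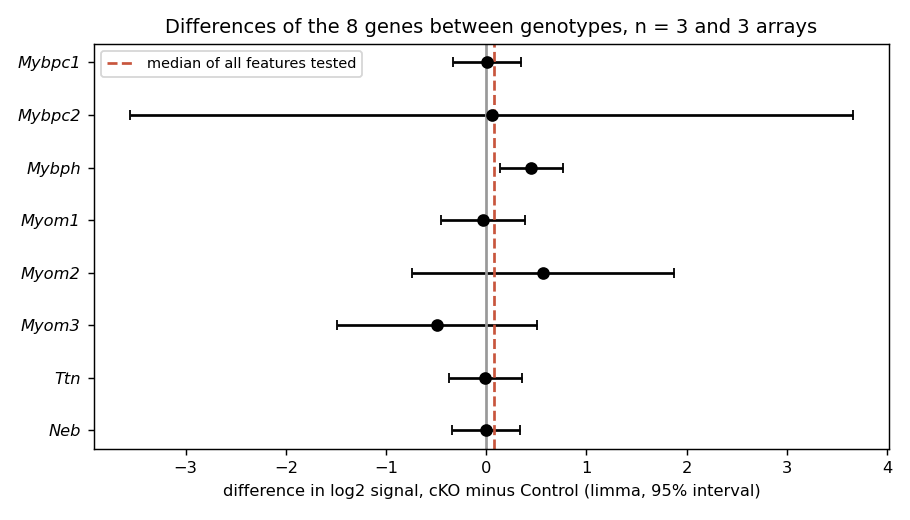
Difference in log2 signal between cKO and Control for each gene, with the 95% interval from limma on 3 against 3 arrays and the median of all features tested as a dashed line. The interval of Mybpc2 runs from -3.56 to 3.66, while those of Mybpc1, Ttn and Neb stay within 0.37 of 0. Mybpc1 and Neb followed the array maximum, so their narrow intervals are not read as absence of change. Nor is that of Ttn, which lay 0.214 to 0.315 below the maximum on every array.

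The 3 myosin-binding genes differed widely in their spread between mice. Mybph encodes myosin-binding protein H, a small relative of myosin-binding protein C. Its log2 signal was 4.17, 4.11 and 4.36 in Control and 4.74, 4.52 and 4.73 in cKO. The lowest cKO array thus lay above the highest Control array, but all 6 signals were close to the median of their own array. The distance above that median was 0.0405, 0.089 and 0.284 in Control and 0.372, 0.491 and 0.725 in cKO. The means were 4.22 ± 0.13 and 4.67 ± 0.12 (SD, n = 3 each), a difference of 0.45 (SE 0.13, 95% interval 0.14 to 0.76) or 1.37-fold, with an adjusted p of 0.999 in limma. The difference lay above the spread within either group without passing the adjustment over all features. Leaving out 1 array cannot undo a full separation, so only the size could vary, and it ran from 0.40 to 0.52.

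Mybpc1 encodes the slow skeletal form of myosin-binding protein C. Its log2 signal was 19.65, 19.73 and 19.78 in Control and 19.62, 19.78 and 19.79 in cKO. The difference was 0.01 (SE 0.14), smaller than the SD of 0.067 and 0.095 within the groups. Mybpc1 followed the array maximum, as given below, so this is not read as absence of change. Mybpc2 encodes the fast form, and its signal varied between mice more than that of nearly any feature. It was 9.14, 10.77 and 12.07 in Control and 10.66, 13.76 and 7.71 in cKO, so the highest and the lowest of the 6 arrays were both cKO. Its SD over the 6 arrays was 2.13, a value exceeded by only 12 of the 33334 features tested, whose median SD was 0.255. The means were 10.66 ± 1.47 and 10.71 ± 3.03 (SD, n = 3 each), a difference of 0.05 (SE 1.51, 95% interval -3.56 to 3.66). The value rested on single arrays, since it was -1.47 without cKO 2 and 1.55 without cKO 3. Leaving out a Control array also moved it, to -0.71 without Control 1, 0.11 without Control 2 and 0.76 without Control 3. With 3 arrays a group, a shift of several log2 units in either direction could not be told from the spread of Mybpc2.

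The myomesin genes are known for fibre type. Myom1 encodes myomesin 1, present in the M-band of all striated fibres, Myom2 encodes the M-protein of fast fibres, and Myom3 encodes myomesin 3, described in fibres of intermediate speed. Myom1 gave 17.69, 17.75 and 18.00 in Control and 17.64, 17.93 and 17.80 in cKO. Its difference was -0.03 (SE 0.18, 95% interval -0.45 to 0.39), and only 15.9% of the features tested had a smaller SD over the 6 arrays. Myom2 gave 14.34, 15.41 and 15.58 in Control and 14.64, 16.54 and 15.85 in cKO. Here cKO 2 and cKO 3 lay above all Control arrays, and cKO 1 lay below Control 2 and Control 3. The means of Myom2 were 15.11 ± 0.67 and 15.68 ± 0.96 (SD, n = 3 each), a difference of 0.57 (SE 0.55, 95% interval -0.74 to 1.88). It was 1.09 without cKO 1, 0.14 without cKO 2 and 0.19 without Control 1. Myom3 gave 14.97, 14.31 and 14.06 in Control and 13.42, 13.67 and 14.78 in cKO. Its cKO 1 and cKO 2 arrays lay below all Control arrays, and its cKO 3 array lay above Control 2 and Control 3. The means were 14.45 ± 0.47 and 13.96 ± 0.72 (SD, n = 3 each), a difference of -0.49 (SE 0.42, 95% interval -1.49 to 0.51). It was -0.90 without cKO 3, -0.22 without cKO 1 and -0.23 without Control 1. Without cKO 1 the groups were separated upward for 3 of the 8 genes, with Myom2 and Mybpc1 beside Mybph, where 12.1% of all features were. For Mybpc1 the array maximum, lowest on cKO 1, has the same order. Without cKO 3 they were separated downward for 1 gene, Myom3, where 2.79% of all features were. Myom2 and Myom3 were also variable in general, with 1408 and 2921 of all features tested above their SD.

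Titin and nebulin are among the largest proteins known. Ttn gave 19.49, 19.59 and 19.70 in Control and 19.45, 19.68 and 19.63 in cKO. The groups overlapped, with a difference of -0.01 (SE 0.15, 95% interval -0.37 to 0.35). Neb gave 19.78, 19.87 and 19.91 in Control and 19.74, 19.92 and 19.91 in cKO. Its difference of 0.003 (SE 0.14) is open to the ceiling of the scale. The highest value on an array ran from 19.77 on cKO 1 to 19.93 on cKO 3, and Acta1, skeletal actin, lay within 2e-06 of it on all 6 arrays. Neb lay within 0.01 of that maximum on 3 arrays and at most 0.0213 below it on the others, and no fold is given for it. Mybpc1 lay 0.137 to 0.146 below the maximum, with an SD of this gap of 0.00359. Only 57 of 65956 features, or 0.0864%, had an SD of the gap under 0.01, and 121, or 0.183%, had one under 0.05. Ttn lay 0.214 to 0.315 below the maximum, with an SD of the gap of 0.0389, and Myom1 lay 1.92 to 2.13 below it. The signals of Neb and Mybpc1 therefore moved from array to array with the maximum, and a difference in transcript above the ceiling was not detectable for Neb. For Mybpc1, and for Ttn close below the maximum, a difference near 0 is likewise not read as absence of change.

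**Figure D3:**
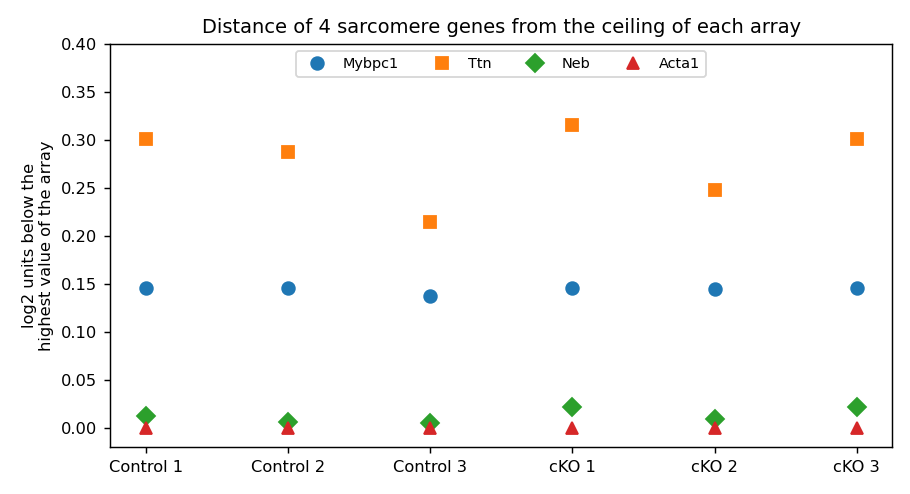
Distance in log2 units of Mybpc1, Ttn, Neb and Acta1 below the highest value of each of the 6 arrays. Mybpc1 holds an almost constant distance of 0.137 to 0.146, Neb stays within 0.0213 of the maximum, and Ttn varies between 0.214 and 0.315.

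The balance between related genes was compared within each array, in 6 contrasts with an exact permutation test that cannot give a p below 0.1 with 3 against 3 arrays. The log2 ratio of Mybph to Mybpc1 was -15.48, -15.62 and -15.42 in Control and -14.88, -15.26 and -15.06 in cKO. The groups did not overlap, with a difference of 0.44 (SE 0.125), an exact two-sided p of 0.1 and 0.6 after Benjamini-Hochberg adjustment over 6. Since Mybpc1 kept an almost constant distance from the array maximum, this contrast restates the separation of Mybph and adds nothing independent of it. The ratio of Myom2 to Myom3 was -0.63, 1.09 and 1.52 in Control and 1.22, 2.87 and 1.08 in cKO. Control 1 was the lowest of the 6 arrays and cKO 2 the highest. That contrast differed by 1.06 (SE 0.872) with an exact p of 0.5. Myom2 against Myom1 differed by 0.60 (exact p of 0.4) and Myom3 against Myom1 by -0.46 (exact p of 0.5). Mybpc2 against Mybpc1 differed by 0.04 (exact p of 0.9), which likewise sets Mybpc2 against the array maximum. The contrast of Neb with Ttn is not read, because Neb lay at or near the ceiling.

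The spread of Mybpc2, Myom2 and Myom3 was set beside 3 genes of fast fibres, after the values had been seen. Pvalb encodes parvalbumin, a calcium buffer of fast fibres, Actn3 the fast Z-disc actinin, and Myh4 the fastest myosin heavy chain. Pvalb gave 7.96, 9.78 and 9.39 in Control and 9.76, 11.87 and 7.13 in cKO. Like Mybpc2, it was highest on cKO 2 and lowest on cKO 3. Myh4 gave 11.72, 13.62 and 13.52 in Control and 13.51, 16.88 and 13.67 in cKO, and Actn3 gave 7.97, 11.27 and 10.72 in Control and 11.47, 15.67 and 10.66 in cKO. Both were highest on cKO 2 and lowest on Control 1, the array on which Myom2 was also lowest and Myom3 highest. In all, 12 relations were computed over the 6 arrays, with exact permutation tests adjusted over 12. Mybpc2 and Pvalb had a Pearson r of 0.947 (exact p = 0.0125, adjusted 0.075) and a Spearman rho of 0.829 (exact p = 0.0583, adjusted 0.233). Without cKO 2 and cKO 3 the r was 0.718. Myom2 and Myh4 had an r of 0.865 (exact p = 0.00556, adjusted 0.0667) and a rho of 0.943 (exact p = 0.0167, adjusted 0.2), and an r of 0.699 without cKO 2 and Control 1. Myom3 had an r of -0.791 with Pvalb (exact p = 0.0611, adjusted 0.173; rho -0.657, exact p = 0.175, adjusted 0.42) and -0.817 without the 2 farthest arrays. Mybpc2 and Myh4 had an r of 0.712, which turned to -0.794 without cKO 2 and Control 1, so that relation rested on these arrays. The same held for Myom2 with Actn3, whose r of 0.797 turned to -0.888, and for Myom3 with Myh4, whose r of -0.601 turned to 0.911. Mybpc2 and Myom2, with an r of 0.473, turned to -0.395 without Control 1 and cKO 2. For Myom3 the r was -0.701 with Actn3 (rho -0.886, exact p = 0.0333, adjusted 0.2) and -0.728 with Mybpc2. Without the 2 farthest arrays of each pair these were -0.713 and -0.994. Mybpc2 with Actn3 gave 0.744, falling to 0.307 in the same way. Myom2 gave 0.456 with Pvalb and -0.239 with Myom3, becoming 0.624 and -0.537. None of the 12 relations passed an adjusted p of 0.05. Each range of mouse numbers holds 3 arrays, too few for a relation within it.

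**Figure D4:**
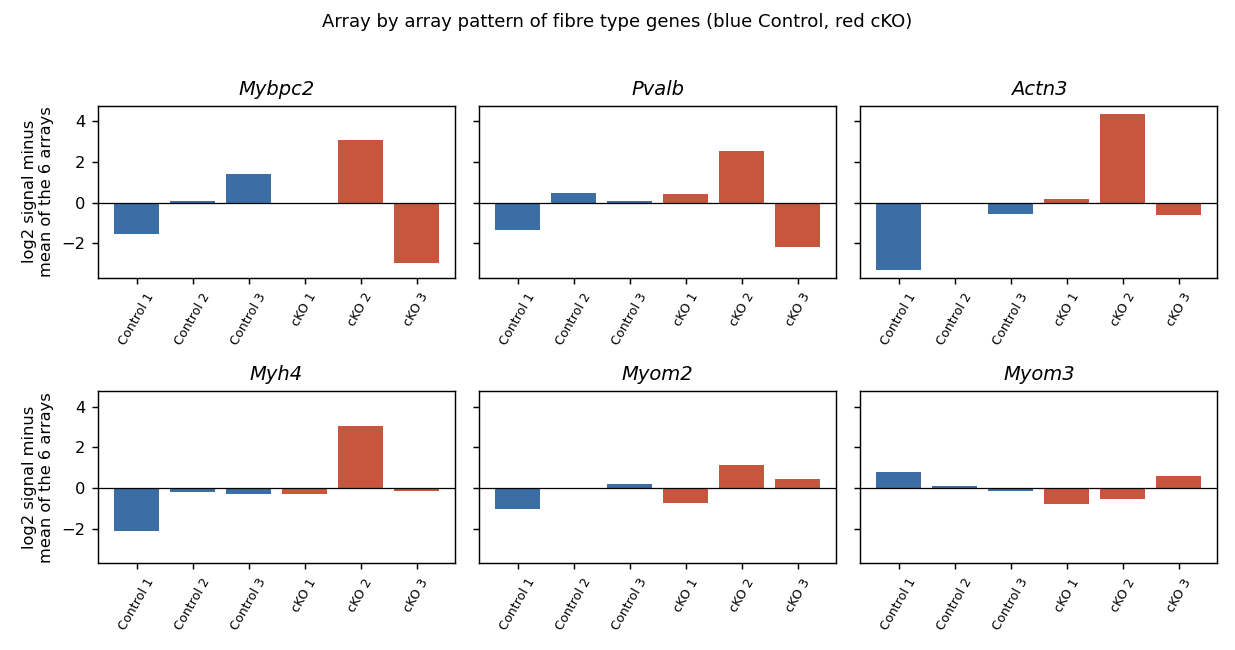
Log2 signal of Mybpc2, Pvalb, Actn3, Myh4, Myom2 and Myom3 on each array, minus the mean of the gene over the 6 arrays, blue for Control and red for cKO on a shared vertical scale. Mybpc2 and Pvalb are both highest on cKO 2 and lowest on cKO 3, while Myom3 is highest on Control 1.

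Among 12 fast fibre genes, 6 were higher and 6 lower in cKO, none was separated, and the median difference was 0.0046. Of these, 5 (Myh2, Myl1, Tnnt3, Tnnc2 and Atp2a1) lay within 0.5 of the array maximum on every array, so little is read from that median. Among the other 7, 4 were higher and 3 lower, with a median of 0.0186. Within this list the differences were 1.73 (SE 0.99) for Myh4, 2.61 (SE 1.45) for Actn3, 0.54 (SE 1.16) for Pvalb, -0.25 (SE 0.16) for the calcium-storing Casq1 and 0.02 (SE 0.22) for Myh1. Myh2, the myosin of oxidative fast fibres, held the maximum of the scale on all 6 arrays to within 1.7e-05, so no difference is read for it. Among 11 slow fibre genes, 9 were higher, beside 65.8% of all features, and the median was 0.0767. In that list 1 was separated upward and 1 downward, beside 8.95% and 2.05% of all features. The 9 include Atp2a2, at 19.67 to 19.84 near the array maximum, with a difference of 0.0055. Myh7, at 19.20 to 19.38, also lay near the maximum and counted as higher. No direction is read for either gene. The slow genes gave 0.05 (SE 0.15) for Myh7, 0.23 (SE 0.18) for Tnni1, 0.09 (SE 0.18) for Tnnt1, 0.45 (SE 0.26) for Myh7b, 0.76 (SE 0.29) for Myl6b and -0.32 (SE 0.19) for Casq2. Skeletal muscle markers were present on all arrays, with Acta1 within 2e-06 of the maximum of each.

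The genes most like each of the 8 were sought by Pearson r over the 6 arrays among 12292 genes, as a description without a test. The pattern of Mybpc2 was most like those of Slc16a3, a lactate transporter of glycolytic fibres (r = 0.978), Slc2a12 (r = 0.968) and Mylk4 (r = 0.965). Slc16a3 and Mylk4 stayed among the first 3 after quantile normalization, the only 2 of 24 such pairs to do so. Mybph was most like Sft2d2, Cul7 (r = 0.997 each) and Popdc3 (r = 0.994), and Myom3 most like Pdgfb (r = 0.977), Dusp3 (r = 0.932) and Kat6b (r = 0.93). Myom2 was most like Rreb1 (r = 0.982), Nfatc1 (r = 0.97) and Ids (r = 0.965), and Myom1 most like Nanp (r = 0.962), Bcl2 (r = 0.957) and Rbbp6 (r = 0.956). Ttn was most like Rbbp6 (r = 0.992), Atp2a1 (r = 0.984) and Ache (r = 0.971). Mybpc1 was most like Tpm2, COX2 and Acta1 (r = 0.999 each), and Neb most like Tpm2 and Mybpc1 (r = 0.997 each) and Rn7sk (r = 0.996). Of these, Acta1 lay within 2e-06 of the array maximum and Tpm2 0.286 to 0.289 below it. COX2 gave 16.01 to 16.18, with the same difference of 0.0122 as Acta1. The r of COX2 with Mybpc1 fell to 0.423 after quantile normalization. These r are the highest of many and rest on 6 arrays that share 1 scale and its ceiling.

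The partners of these proteins were described by lists of thick filament, M-band, titin and thin filament genes. Of 37 partner genes, 34 were tested, 27 were higher in cKO, beside 65.8% of all features, and 10 (29.4%) were separated upward and 0 downward, beside 8.95% and 2.05% of all features, with a median of 0.104. None passed the adjusted threshold in limma. The 27 include Acta1, at the array maximum, and Actn2, 0.104 below it on all 6 arrays, each with a difference of 0.0122. Ckm, at 19.35 to 19.58, and Nrap, at 19.22 to 19.39, also lay near the maximum and counted as higher. No direction is read for these genes. The split moved with the scaling, from 10 upward and 0 downward as deposited to 6 and 0 after quantile normalization, where 4.99% and 4.97% of all features were separated upward and downward. With array medians centred it was 7 and 1, beside 5.15% and 4.03%. The partners higher in cKO numbered 24 after quantile normalization, beside 49.1% of all features, and 22 with medians centred, beside 53.4%. The counts of each list below are as deposited. They are read beside 65.8% of all features higher, 8.95% separated upward and 2.05% downward. These lists were chosen with earlier results of these data known.

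Among 5 tested thick filament partners, 4 were higher and 2 were separated upward. Smyd1, a methyltransferase of myosin assembly, gave 13.90, 13.67 and 13.71 in Control and 14.14, 13.99 and 14.18 in cKO, a difference of 0.34 (SE 0.18). Unc45b, a myosin chaperone, differed by 0.28 (SE 0.19) and the kinase Speg by 0.23 (SE 0.24). Mybpc3, the cardiac myosin-binding protein C, stayed between 4.21 and 4.57, near the array medians.

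Among 10 tested M-band partners, 8 were higher, Ckm included, and 2 were separated upward. Sqstm1 and Nbr1, autophagy receptors that titin kinase signalling is known to reach, were those 2 genes. Sqstm1 gave 12.78, 12.43 and 12.67 in Control and 13.86, 13.10 and 13.38 in cKO, a difference of 0.82 (SE 0.25). Nbr1 gave 9.82, 9.83 and 9.80 in Control and 10.26, 10.04 and 10.16 in cKO, a difference of 0.34 (SE 0.17). Eno3, muscle enolase, differed by 0.32 (SE 0.18) and Obsl1, an M-band partner of titin and myomesin, by 0.10 (SE 0.14).

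Among 9 titin I-band and Z-disc partners, 8 were higher, Actn2 included, and 4 were separated upward. Csrp3, the Z-disc muscle LIM protein, gave 16.40, 16.64 and 16.58 in Control and 17.65, 17.12 and 17.54 in cKO, a difference of 0.90 (SE 0.20). Ankrd2, an ankyrin repeat protein of the titin spring region, gave 16.35, 16.40 and 16.39 in Control and 16.67, 16.93 and 17.21 in cKO, a difference of 0.56 (SE 0.19). Tcap, which caps titin at the Z-disc, differed by 0.30 (SE 0.17), and Capn3, a protease anchored on titin, by 0.30 (SE 0.18). Ankrd1, a relative of Ankrd2, differed by 1.19 (SE 0.58) with overlapping groups. Each had an adjusted p of 0.999 in limma, so these differences did not pass the threshold.

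Among 10 tested thin filament and nebulin partners, 7 were higher, Acta1 and Nrap included, and 2 were separated upward, with a median of 0.0352. Klhl40, which stabilises nebulin, gave 10.29, 10.95 and 11.11 in Control and 12.20, 11.48 and 11.64 in cKO, a difference of 0.99 (SE 0.31). Lmod2, an actin filament nucleator, gave 17.64, 17.76 and 17.61 in Control and 18.25, 17.87 and 18.12 in cKO, a difference of 0.41 (SE 0.17). Lasp1, a small nebulin relative, differed by 0.07 (SE 0.13), and Nebl, nebulette, was not above its array median often enough to be tested.

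Lists named for other cells and for developing fibres were set beside Mybph, and no gene of these lists passed the adjusted threshold in limma. All 10 tested genes of the list named for developing and regenerating fibres were higher, beside 65.8% of all features, and 6 were separated upward, beside 8.95%. Their median was 0.634. Their mean log2 signal was 7.68, 7.70 and 8.21 in Control and 8.55, 8.40 and 8.66 in cKO. Within that list the differences were 1.07 (SE 0.32) for Myf6, 0.79 (SE 0.21) for Runx1 and 0.59 (SE 0.17) for Myod1. Myf6 already gave 12.26, 12.34 and 13.21 in Control, so no state of the fibres is read from the name of the list. All 10 tested tendon genes of 12 were higher and 6 were separated upward, beside the same shares of all features. Their median was 1.16, with list means of 5.67, 5.65 and 6.41 in Control and 6.93, 7.05 and 7.17 in cKO. The medians were 0.444 for 5 adipocyte genes, 0.283 for 8 fibroblast genes, 0.277 for 8 macrophage and lymphocyte genes, -0.41 for 6 endothelial genes, 0.0433 for 4 nerve genes and 0.16 for 5 heart genes. Of 6 bone genes 2 were tested, with a median of -0.0871. Within mice 776 to 780 several of these medians were smaller or of opposite sign, at 0.295 for developing fibre, 0.472 for tendon, 0.093 for adipocyte, 0.0283 for macrophage and lymphocyte, -0.293 for fibroblast and 0.301 for endothelial genes. The part of these cells in the difference of Mybph was not tested.

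Mouse numbers fell into 2 ranges, 715 to 733 with Control 1, Control 2 and cKO 1, and 776 to 780 with Control 3, cKO 2 and cKO 3, and the labels do not say what a range marks. Mybph was higher in cKO within both, by 0.60 and 0.27. That sign was fixed by the full separation of the groups, so only the size could vary. Myom2 differed by -0.24 in the low range and 0.62 in the high range, Myom3 by -1.22 and 0.17, and Mybpc2 by 0.71 and -1.33, so their sign changed between ranges. Myom1 differed by -0.08 and -0.14 and Ttn by -0.09 and -0.05. Mybpc1 differed by -0.07 and 0.003. With the range as a block, Mybph differed by 0.43 (adjusted p of 0.765 in limma).

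**Figure D5:**
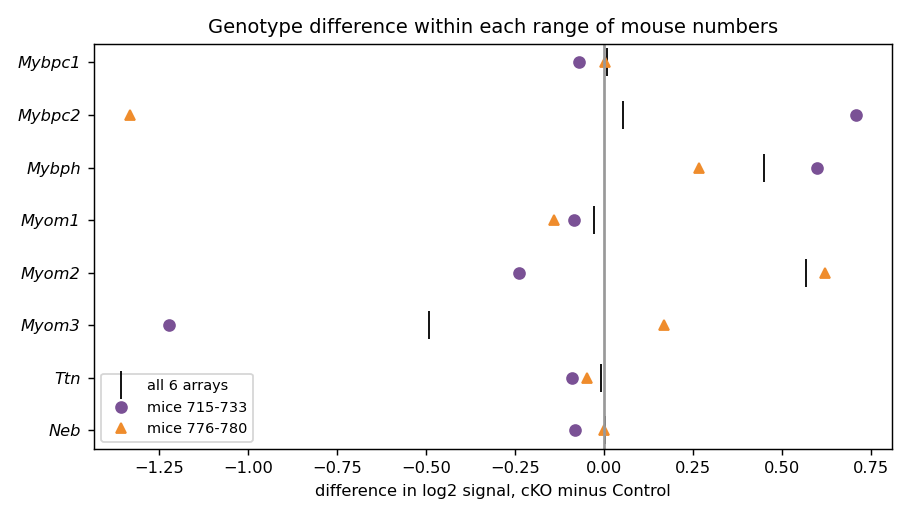
Difference in log2 signal between cKO and Control for each gene over all 6 arrays and within each range of mouse numbers. Mybph lies above 0 in both ranges, which its full separation of the groups fixes in advance. Mybpc2, Myom2 and Myom3 lie on opposite sides of 0.

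Mbtps1 itself gave 7.39, 7.05 and 7.24 in Control and 7.77, 7.44 and 7.11 in cKO, a difference of 0.21 (SE 0.21) with overlapping groups. The sources used here do not say which bases its feature covers relative to the deleted part, so this value does not check the labels, and groups are as labelled. The array median was highest on cKO 1, at 4.37, and at most 4.13 on the other arrays. The number of arrays, 3 a group, limits the precision of every value.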

How the data were processed

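Total RNA of soleus, 100 ng a mouse, was labelled and hybridised, per the labels' protocols. The deposited value table holds 1 signal per feature and array, read as log2 from its range of 1.92 to 19.93. For its log base, background correction, normalization and software, the answer is not given in the sources used here. Of 72688 rows, 6732 were empty. Symbols came from the platform annotation: 30604 features had 1 symbol, 2146 several and 33206 none here. A single symbol was replaced by the RefSeq symbol of the same Entrez gene where there was one.

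A feature was tested if it exceeded its array's median on 3 or more arrays (33334 features, 18334 genes). The model was limma's lmFit and eBayes with a trend (version 3.58.1, under R 4.3.3), applied to the values as deposited, and p-values were adjusted by Benjamini-Hochberg over all features tested. The fit was tested on simulated data. Figures used Python 3.11.15 with matplotlib 3.10.9 and pandas 2.3.3. Nothing says how the mice were drawn beyond littermates. A limma p-value sets a difference against the variation between these arrays, moderated over features, and is read for these arrays alone.

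The 8 genes and all lists were chosen with earlier results of these data known. Named partners were the 3 with the smallest unadjusted p in each muscle list and a set of named fibre and sarcomere genes. Lists of other cells are given by their counts and medians alone, although the rule also named 2 genes of each. The alternatives were other normalizations, filters, eBayes settings, array weights, blocks and leaving out each array.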

Additional observations from a re-analysis of the deposited data

How the results depend on the processing

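No member passed an adjusted p of 0.05 in any of 17 alternative fits (0 members in each, limma). Without Control 3, 14 features overall were called. At the 75th percentile filter Mybph was not tested. Mybph lay between 0.27 and 0.60 over 18 alternatives, with a lowest adjusted p of 0.283. Same-numbered arrays had deviations correlated at 0.128, -0.204 and 0.205, and arrays of unlike number at -0.405 to 0.387. With 3 arrays a group, this cannot settle whether replicate numbers pair the mice. With the replicate block, 1322 features had an unadjusted p under 0.05 against 1501 without it, and Mybph differed by 0.45 as before. Array weights gave 4256 such features, 1.87 for Mybpc2 and 1.41 for Myom2. Averaging a gene's features leaves the 8 genes as they are, each having 1 feature, and was not run for the lists.

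Signs changed as follows. Aligning array maxima, added after seeing the data, gave -0.0026 for Mybpc1, -0.0095 for Neb and -5.667e-06 for Myh2, which sits at the ceiling. Centred medians gave -0.049 for Mybpc1, -0.0049 for Mybpc2, -0.040 for Myh1, -0.046 for Myh2, -0.0035 for Myh7 and -0.055 for Neb. Array weights gave -0.049 for Lasp1, 0.11 for Myom1 and 0.096 for Ttn. The number range as a block gave -0.033 for Mybpc1, -0.31 for Mybpc2, 0.063 for Mybpc3, -0.034 for Myh1, -0.029 for Myh2 and -0.040 for Neb. Quantile normalization gave -0.0076 for Lasp1, -0.054 for Mybpc2, -0.058 for Mybpc2 against Mybpc1, -0.013 for Myh1, 0.0060 for Myom1 and -0.0032 for Neb. With the range as a block added it gave -0.0021 for Lasp1, -0.0088 for Mybpc1, -0.43 for Mybpc2, -0.054 for Myh1 and -0.0065 for Neb.

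Within mice 715 to 733 the values were -0.070 for Mybpc1, 0.21 for Mybpc3, -0.070 for Myh2, -0.0062 for Myh7, -0.24 for Myom2, -0.15 for Myom2 against Myom1, -0.081 for Neb and -0.11 for Speg. Within mice 776 to 780 they were -1.33 for Mybpc2 and for Mybpc2 against Mybpc1, -0.19 for Myh1, 0.17 for Myom3, 0.31 for Myom3 against Myom1, -0.053 for Obsl1 and -0.14 for Tnnt1. Leaving out 1 array in turn gave ranges of -0.026 to 0.065 for Mybpc1, -1.47 to 1.55 for Mybpc2, -1.45 to 1.57 for Mybpc2 against Mybpc1, -0.12 to 0.060 for Mybpc3, -0.15 to 0.14 for Myh1, -0.022 to 0.067 for Myh2, -0.097 to 0.066 for Myom1, -0.034 to 0.059 for Neb, -0.014 to 0.027 for Neb against Ttn, -0.60 to 1.77 for Pvalb, -0.028 to 0.20 for Tnnt1 and -0.059 to 0.060 for Ttn. The contrast of Neb with Ttn is limited by the ceiling. Members separated upward numbered 1 to 3 (3 without cKO 1) and downward 0 to 1 (1 without cKO 3). The causes were not tested.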
